A study of Mus musculus with 13 samples.

Results

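Glucocorticoid receptor (GR, encoded by Nr3c1) peaks that the authors list as mutant-specific and annotate as lying between genes numbered 1003. They were the rows of the authors' mutant-specific list that the deposited annotation places upstream or downstream of the assigned gene, more than 1000 bp from its start. They made up 45.9% of the 2187 mutant-specific peaks, out of 24673 peaks in 3 lists from cells treated with dexamethasone (Dex, a synthetic glucocorticoid) plus lipopolysaccharide (LPS, a bacterial cell wall component). Of these members, 582 lay downstream and 421 upstream. They were chosen by their place in the mutant-specific list and by the distance to the start, so these values are a description. Just outside the distance limit were peaks 970, 972 and 990 bp upstream of Mt2, Hmga1 and Tut4, and just inside it peaks 1001, 1004 and 1068 bp upstream of Mir155hg, Fosl2 and Skil. A further 76 mutant-specific peaks outside genes lay within 1000 bp of a start, 75 of them upstream, and were left out.

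All 13 chromatin immunoprecipitation sequencing (ChIP-seq) libraries came from mouse embryonic fibroblasts (MEFs) of male C57BL/6 embryos taken on day 13.5, with head and internal organs removed, and cultured for 7 days. Chromatin was fixed with a protein crosslinker and formaldehyde, and 1 antibody against the receptor served throughout. Under Dex (1 µM, 16 h) with LPS (100 ng/µl as labelled, 3 h) there were 3 libraries from GR wt / wt cells, 4 from GR Zn / Zn cells and 2 from receptor knockout cells (GRKO/KO). Dex without LPS was given to 2 wild-type and 2 GR Zn / Zn libraries' cells. The deposited names of the mutant data give the exchange as C437G. The 3 Dex+LPS lists (wild-type-specific, shared and mutant-specific) were merged over libraries and had the knockout cells' peaks removed, per the file names, so they carry no spread between replicates. Every peak in them was 200 bp wide and none came with a score, and the depth is unknown. Peaks do not measure expression, so the cell type could not be checked against its markers. Nothing in the labels says whether libraries came from separate embryos.

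GR is a nuclear receptor that enters the nucleus when a glucocorticoid binds it. It can bind DNA itself through the zinc fingers of its DNA-binding domain, or reach chromatin through other transcription factors such as AP-1, NF-kB, STAT and IRF proteins. In fibroblasts, LPS sets off NF-kB signalling and an interferon response, and glucocorticoids restrain many of the genes involved. ChIP-seq with a protein crosslinker recovers direct and indirect contacts alike and does not tell them apart.

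The mature sequence of miR-155 and several RefSeq windows (GRCm38.p6, the assembly also called mm10) belong to genes that members were assigned to or overlapped. Of these, only the windows of Dgkh and of Gm35090, which holds part of a transfer RNA gene, overlapped a member. The sequences of most members were not analysed here. The first is the miRNA encoded in Mir155hg, the host gene with a run of 5 members before its start, with the seed (bases 2 to 8) in capitals.
mmu-miR-155-5p: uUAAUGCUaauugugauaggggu
Of the 1003 members, 6 overlapped a promoter window, taken from 250 bases before a RefSeq start to 50 bases after it. Of these, 1 is shown first by its 250 bases before the start, with the bases under the member in capitals. It belongs to Dgkh, which encodes a diacylglycerol kinase (chr14:78732730-78732979, minus strand, 190 bases under the member). The deposited annotation assigns this member to Dgkh itself, 7.80 kb from its start, so the RefSeq window lies at another start of the same gene.
Dgkh: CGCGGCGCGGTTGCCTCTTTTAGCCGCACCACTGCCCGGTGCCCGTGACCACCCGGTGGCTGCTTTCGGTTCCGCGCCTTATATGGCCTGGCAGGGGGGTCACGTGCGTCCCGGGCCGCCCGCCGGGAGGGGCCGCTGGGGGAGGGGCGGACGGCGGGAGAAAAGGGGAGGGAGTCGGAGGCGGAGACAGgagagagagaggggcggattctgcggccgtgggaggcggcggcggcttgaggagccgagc
A transfer RNA (tRNA) gene under a member is shown next, since members overlapped such genes (chr1:171033969-171034068, minus strand). The bases shown are part of the promoter window of Gm35090, another of the 6. Capitals mark the 47 of the 74 bases of this tRNA gene that the window holds.
n-TNgtt6: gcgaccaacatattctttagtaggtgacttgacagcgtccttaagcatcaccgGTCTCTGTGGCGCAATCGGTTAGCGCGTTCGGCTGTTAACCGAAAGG
Some interferon response genes with members are shown by 60 bases around the interferon-stimulated response element of their promoter. They were picked because their promoter holds it. No member overlapped these promoter windows. The nearest assigned member lay 4.39 (Bst2), 9.51 (Irgm1), 14.6 (Oas1a), 3.90 (Rsad2) and 22.6 kb (Stat2) from the gene start. The element was searched as GAAA, any 2 bases and GAAA, on both strands, overlapping matches joined, and stands in capitals. The windows are Bst2 (chr8:71537565-71537624, minus strand), Irgm1 (chr11:48871421-48871480, minus strand), Oas1a (chr5:120907526-120907585, minus strand), Rsad2 (chr12:26456538-26456597, minus strand) and Stat2 (chr10:128270251-128270310, plus strand).
Bst2: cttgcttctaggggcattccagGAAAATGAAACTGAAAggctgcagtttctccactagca
Irgm1: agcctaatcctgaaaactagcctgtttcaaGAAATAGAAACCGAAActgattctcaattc
Oas1a: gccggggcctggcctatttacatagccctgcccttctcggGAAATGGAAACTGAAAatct
Rsad2: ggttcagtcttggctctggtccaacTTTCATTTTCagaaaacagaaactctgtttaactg
Stat2: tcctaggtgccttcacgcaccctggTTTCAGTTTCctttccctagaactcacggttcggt

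The members' genes were read first through the interferon response, the transcription programme that type I interferon sets off through STAT and IRF factors. Of the 50 genes of the interferon response list, 19 (38.0%) had at least 1 member assigned to them, 29 members in all. Over all 21900 protein-coding genes the share with a member was 2.50%. The list was drawn up with earlier results of these data known, so its count describes these peaks and does not test the list. Shared intergenic peaks reached 3 genes of the list (6.00%, against 4.54% of all protein-coding genes), and wild-type-specific intergenic peaks reached 10 (20%, against 16.1%). Mutant-specific peaks inside genes reached 24 (48.0%), so interferon genes were not particular to the intergenic members. The share of all protein-coding genes was not computed for that class. With chromosomes 10 to 14 left out, 12 interferon genes had a member (24%, against 1.25% of all protein-coding genes).

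The interferon genes with members included a sensor, transcription factors, effectors and regulators of the pathway. Among the sensors, Ifih1, which detects viral double-stranded RNA in the cytosol, had 1 member 7.04 kb past its end. Among the transcription factors, Irf7, which drives type I interferon genes, had a member 115 bp past its end (chr7:141262869-141263068). Stat2, a subunit of the interferon-activated transcription factor complex, had one 264 bp past its end (chr10:128293113-128293312). Irf1 had 1 member 3.11 kb past its end.

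Among the effectors, the antiviral oligoadenylate synthetase family had 3 genes with members. Oasl2 had members 57, 572 and 2362 bp past its end, Oasl1 had one 556 bp past its end and one upstream, and Oas1a had one 3.26 kb past its end. The members of Oasl2 and Oasl1 formed 1 run of 4 over 6.14 kb of chromosome 5 (chr5:114912302-114918439), with no wild-type peak between them. The family's genes resemble each other in sequence, so the assignment of reads among them is uncertain. Bst2, which tethers budding virus particles to the cell surface, had members 1.11 and 1.74 kb past its end. Cmpk2, a mitochondrial nucleotide kinase, had members 2.07 and 3.24 kb past its end, and its neighbour Rsad2, which encodes the antiviral enzyme viperin, had 1 member 3.90 kb upstream. Slfn2 and Slfn5, of the Schlafen family, had 2 members and 1 member, the nearest 855 and 322 bp past the gene ends. Irgm1, an immunity-related GTPase, had 1 member 3.32 kb past its end, and Ifi44 1 member 1.65 kb past its end.

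Genes that modify the response stood beside them. Usp18, which removes the ubiquitin-like protein ISG15 and damps interferon receptor signalling, had members 1.43, 2.34 and 2.73 kb past its end. Parp14 and Parp9, ADP-ribosyltransferase family members, had 2 each, at 239 and 773 bp and at 1.29 and 1.96 kb past the ends. Psmb8, a subunit of the immunoproteasome, had 1 member 770 bp past its end. In all, 26 of the 29 members at interferon genes lay downstream of their gene, and 25 lay within 5 kb past its end. Of the 50 genes of the list, 16 had at least 1 member there, against 147 of 21900 protein-coding genes (0.671%). Among genes with a member these were 16 of 19, against 147 of 547 protein-coding genes.

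**Figure D1:**
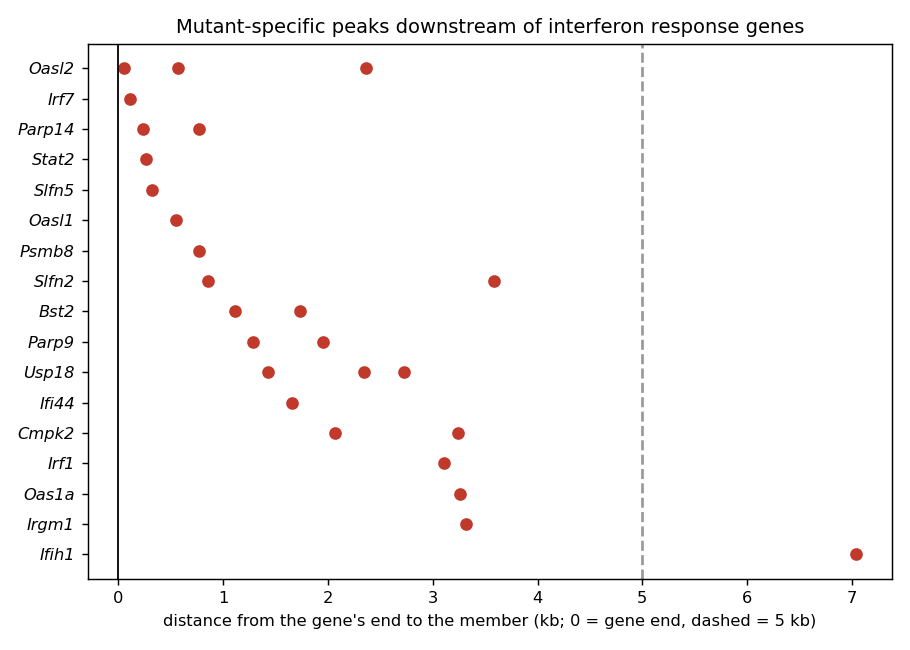
Distance in kb from the end of each interferon response gene (rows) to the mutant-specific peaks downstream of it (points, 1 per peak); the solid line marks the gene end and the dashed line 5 kb. Of the 26 peaks, 25 lie within 5 kb and 1, at Ifih1, lies at 7.04 kb.

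Of the 19 interferon genes with a member, 15 had a promoter window in the table, and 7 of these windows (46.7%) held the element. In the whole list 22 of the 40 genes with a window held it (55.0%), and of all 27025 genes with a window 3.99%. Among all 534 genes with a member and a window, 32 (5.99%) held it. Each of the other motifs searched, the GR palindrome and the AP-1 and NF-kB motifs among them, was held by 0 to 2 of the 15 genes. The genes with members are part of that list, and the difference between the shares was not tested. The element was searched in promoter windows only and not in the members, so its presence in the members was not tested. Of the 29 members at interferon genes, 26 lay downstream of their gene.

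The position past gene ends was not confined to interferon genes. Of all members, 211 (21.0%, exact 95% interval 18.6 to 23.7) lay within 5 kb past the end of the assigned gene. This compared with 169 of 1712 shared intergenic peaks (9.87%, 8.50 to 11.4) and 691 of 9044 wild-type-specific intergenic peaks (7.64%, 7.10 to 8.21). The side of the gene also entered the choice of members, by the same rule in the other classes, so these shares are a description. This comparison was also chosen after seeing the data. The differences were 11.2 and 13.4 percentage points, 7.61 and 9.34 without any gene of the lists, 18.4 and 23.3 without chromosomes 10 to 14, and 7.13 and 6.46 on those chromosomes alone. Among downstream peaks only, the shares were 36.3%, 19.9% and 15.5%. The comparison sets lists of peaks against each other, with no libraries as replicates, and neighbouring peaks of 1 run are not independent. The 211 members belonged to 161 genes, 37 of which had 2 or more.

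The 11 genes with 3 or more members within 5 kb past the end, a cut chosen after the values were seen, included 5 list genes. Samd9l, an interferon-induced antiviral factor, had 4 such members between 848 and 3645 bp past its end, and Tnc, which encodes the matrix protein tenascin-C, had 4 between 2433 and 4613 bp. Casp4, the caspase that senses LPS inside cells, had 3 between 2338 and 3279 bp, and Hspa8, a constitutive heat shock chaperone, had 3 between 345 and 2744 bp. Slfn9, another Schlafen gene, had 3 between 1540 and 3859 bp. The others were Cbx1, Errfi1, Frmd8, Oasl2, Usp18 and Vcam1, with 3 each. The members at Frmd8 formed a run of 4 with a member at Neat1, a nuclear non-coding RNA, over 3.62 kb of chromosome 19 (chr19:5846644-5850264).

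**Figure D2:**
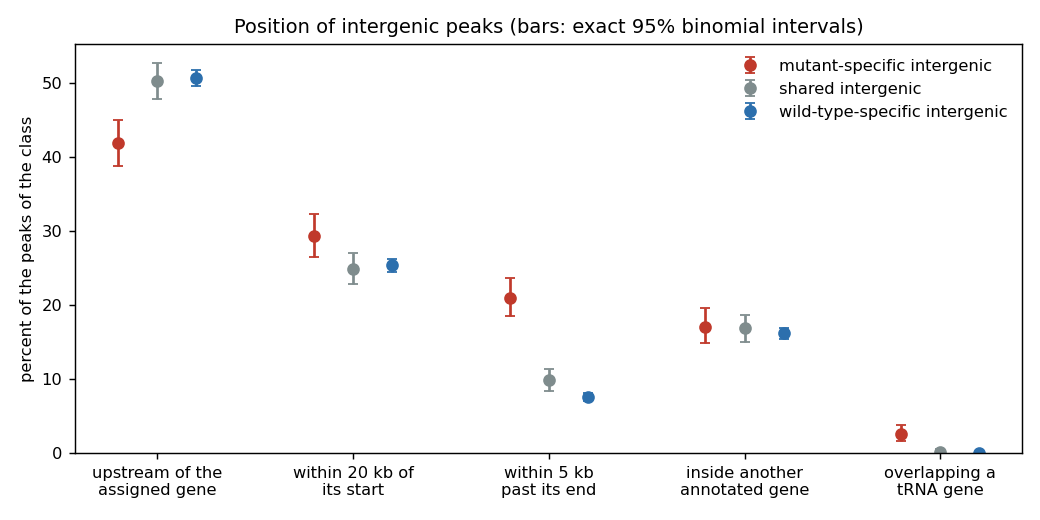
Percent of mutant-specific, shared and wild-type-specific intergenic peaks (points, with exact 95% binomial intervals) in each position named on the horizontal axis. The mutant-specific points are at 42.0% for upstream positions and lie above the others past gene ends (21.0%) and at tRNA genes (2.59%).

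The other gene lists are given against the same shares of all protein-coding genes, 2.50% with a member, 4.54% with a shared and 16.1% with a wild-type-specific intergenic peak. Of 46 NF-kB and inflammatory genes, 10 (21.7%) had a member, while 18 (39.1%) had a shared and 25 (54.3%) a wild-type-specific intergenic peak. Ripk2, a kinase that relays signals from NOD receptors, had 4 members 2935 to 7652 bp past its end and no wild-type peak of any class. Vcam1, an adhesion molecule for leukocytes, had 3 members 1020 to 3025 bp past its end. Il6, the cytokine gene, had members 1749 and 2726 bp past its end and another 64.7 kb upstream. Nfkbia, which encodes the NF-kB inhibitor IkBα, had 1 member 4190 bp past its end, and Rela, a subunit of NF-kB, had 1 at 691 bp. Of the 19 members at these genes, 11 lay within 5 kb past the end. In each class the list's share was above that of all protein-coding genes.

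Of 45 known GR targets, 8 (17.8%) had a member, against 10 (22.2%) with a shared and 22 (48.9%) with a wild-type-specific intergenic peak. The shares of all protein-coding genes were 2.50%, 4.54% and 16.1% in the same order. Errfi1, a feedback inhibitor of the EGF receptor, had 3 members 1479, 1953 and 3273 bp past its end. Mt1, a metallothionein, had members 751 and 1682 bp past its end, and Anxa1, a glucocorticoid-induced mediator that limits inflammation, had members 1102 and 1968 bp past its end. Cdkn1a, which encodes the cell cycle inhibitor p21, had 2 members, 4310 and 8113 bp past its end. Pdk4, which restrains pyruvate dehydrogenase, had 1 member 5085 bp past its end (chr6:5478067-5478266) and no wild-type peak in the Dex+LPS lists.

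Of 45 extracellular matrix and fibroblast genes, 9 (20%) had a member, against 15 (33.3%) and 28 (62.2%) with a shared or a wild-type-specific intergenic peak, each above the share of all protein-coding genes (2.50%, 4.54% and 16.1%). Tnc held 6 of the 18 members. The collagen genes Col1a1 and Col1a2 had 1 member each, 1444 and 1915 bp past the end, and Igfbp3, a carrier of insulin-like growth factors, had 2 members 215 and 711 bp past its end and another 69.3 kb upstream. Of the 13 AP-1 family genes, 3 (23.1%) had members, against 3 (23.1%) with a shared and 5 (38.5%) with a wild-type-specific intergenic peak. Fos had 2, at 217 and 733 bp past its end, Fosl2 had 1 that lay 1004 bp upstream, and Jun had 1 that lay 109 kb upstream.

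No gene of the circadian clock list (20 genes), the macrophage markers (15) or the epithelial markers (12) had a member. With 2.50% of all protein-coding genes holding one, lists this short give no reading from a count of 0. Adipogenesis and lipid genes had 2 of 20 (Klf4 and Klf5), ribosomal and housekeeping genes 2 of 20 (Rpl3 and Tuba1a) and endothelial markers 3 of 12 (Kdr, Flt1 and Emcn). The wild-type-specific intergenic class reached 5, 2 and 4 genes of the 3 lists with no member.

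**Figure D3:**
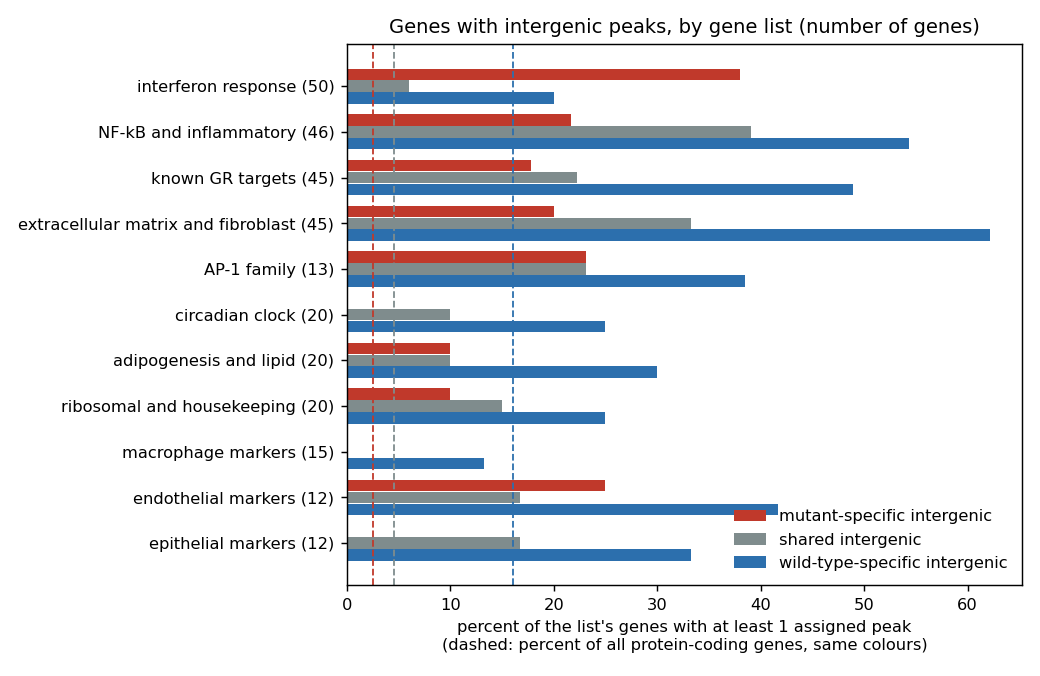
Percent of each list's genes (list size in brackets) with at least 1 assigned intergenic peak of the 3 classes (bars), with the percent of all protein-coding genes as dashed lines in the same colours. The interferon response list is the one in which the mutant-specific bar (38.0%) is the longest of the 3.

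Members also lay on tRNA genes, the short genes that RNA polymerase III transcribes into the adaptors of protein synthesis. Of the 1003 members, 26 (2.59%, exact 95% interval 1.70 to 3.78) overlapped a tRNA gene, each a different one of the 408 nuclear tRNA genes in the table (6.37%). Over all 24673 Dex+LPS peaks the share was 0.170%. It was 4 of 1712 among shared and 1 of 9044 among wild-type-specific intergenic peaks (0.234% and 0.0111%). Fisher's exact test across peaks gave adjusted p = 3.64e-08 and 6.98e-25, but this comparison was chosen after seeing the data. It has no libraries as replicates, and 11 of the 26 members had another mutant-specific peak within 10 kb. The shares are therefore a description. A further 9 mutant-specific peaks outside the intergenic class overlapped a tRNA gene.

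The 26 tRNA genes were spread over 10 chromosomes, with 10 on chromosome 13, 5 on chromosome 11 and 3 on chromosome 1. On chromosome 13, which holds 105 of the 408 tRNA genes, the assigned neighbours included the histone genes Hist1h2bl and Hist1h2ah. The tRNA genes under members served different amino acids by their names (for example n-TNgtt6, shown above, n-TMcat7 and n-TKctt11). None of the 26 was also under a shared or wild-type-specific peak, which the choice of members from outside these lists largely fixed. No peak of any Dex library overlapped a tRNA gene. The distance from these members to the nearest wild-type peak ranged widely, from 0.634 kb at n-TIaat4 to 163 kb at n-TLaag7. tRNA genes have many near-identical copies, so the reads behind these peaks may not have a single place in the genome, and the sources used here do not give how the authors handled such reads.

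By the RefSeq annotation, not every member lay between genes. A member lay wholly inside another gene in 172 cases, 49 of them in a protein-coding gene and 123 in non-coding genes or pseudogenes. A further 14 lay inside the RefSeq span of the assigned gene itself, and 817 (81.5%) lay in no gene. The share inside another gene, 17.1%, did not pass the test against shared (16.9%, adjusted p = 0.874, a difference of 0.268 percentage points) or wild-type-specific intergenic peaks (16.3%, adjusted p = 0.539), by Fisher's exact test adjusted over 8 positional tests. Members inside protein-coding bodies were 4.89%, with 3.45% and 2.43% in the other classes.

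A single gene accounted for 22 of the 49 members in protein-coding bodies. Rnf213, a large interferon-inducible ubiquitin ligase, held them between positions 119396599 and 119459630 of chromosome 11. The deposited annotation gave 13 of them to the non-coding gene A930037H05Rik and 9 to the miRNA gene Mir1932, so the count of interferon genes above leaves Rnf213 out. Its body held 28 mutant-specific peaks in all, with 2 wild-type-specific and 0 shared peaks. The first 21 of these members formed the longest run among members, 52.2 kb with no wild-type peak inside it.

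Of the 1003 members, 338 (33.7%) lay in runs, in which each member lies within 10 kb of the next. Of the runs, 105 held 2 members and 29 held 3 or more, and the other 665 members stood alone. After Rnf213 the longest were 8 members between Sprr2a1 and Sprr2a3, which encode cornified envelope proteins, and 8 beside Zfp981 inside the pseudogene Vmn2r-ps16. The Sprr2a run held 1 shared and 3 wild-type-specific peaks, and the Zfp981 run held 0 of either. Tnc followed with 6 members over 6.62 kb and 1 shared peak among them, and had 13 shared and 22 wild-type-specific peaks in all. Upstream of Mir155hg, 5 members spanned 7.25 kb, from 1001 bp to 8.05 kb before the start, with no wild-type peak between them (chr16:84704868-84712122). The nearest wild-type peaks lay 1526 bp from the first of these members and 4280 bp from the last, and Mir155hg had 2 shared peaks. miR-155, whose sequence stands above, is an LPS-induced miRNA in immune cells. Samd9l also had a run of 5, and Ripk2 one of 4 over 4.92 kb.

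Most genes had a single member. Of the 684 assigned genes, 510 had 1 member, 157 had 2 to 4 and 17 had 5 or more, and 128 had neither a shared nor a wild-type-specific peak. After A930037H05Rik the largest number, 12, was assigned to Prl2c3, a proliferin gene, between 4.04 and 68.5 kb from its start. Obox2, Olfr161, C330004P14Rik and Zfp709 had 6 each, and Cox7c, Gm10375, Grik2 and Pfkp had 5 each. Prl2c3, Obox2, Olfr161, the zinc finger genes and Gm10375 belong to families of similar genes, so their assignments are uncertain. At Olfr161, Pfkp, Cox7c and Grik2, no member lay within 100 kb of the start.

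The side of the gene and the distance to its start were used to choose the members, and the same rule chose the shared and wild-type-specific intergenic peaks, so both are given as a description. Of the members, 42.0% (38.9 to 45.1) lay upstream, against 50.3% of shared and 50.7% of wild-type-specific intergenic peaks. On chromosomes 10 to 14 alone, the share upstream differed by -3.76 percentage points from that of shared peaks.

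The median distance from a member to the start of its gene was 50.2 kb, with quartiles of 15.3 and 152 kb. It was 54.3 kb for shared and 57.5 kb for wild-type-specific intergenic peaks. Within 20 kb of the start lay 29.4% of members, against 24.9% and 25.4%. The differences of 4.47 and 4.00 percentage points fell to 2.30 and 2.04 with 1 peak kept per run, to 1.73 and 1.5 without the genes of the lists, and to 3.68 and 0.553 on chromosomes 10 to 14 alone. At the far end, 76 members lay beyond 500 kb and 25 beyond 1 Mb. The farthest were at Pcdh17 (2.08 Mb), a protocadherin gene, and Olfm4 (2.08 Mb), both on chromosome 14, and at the glutamate receptor gene Grik2 on chromosome 10 (1.99 Mb).

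**Figure D4:**
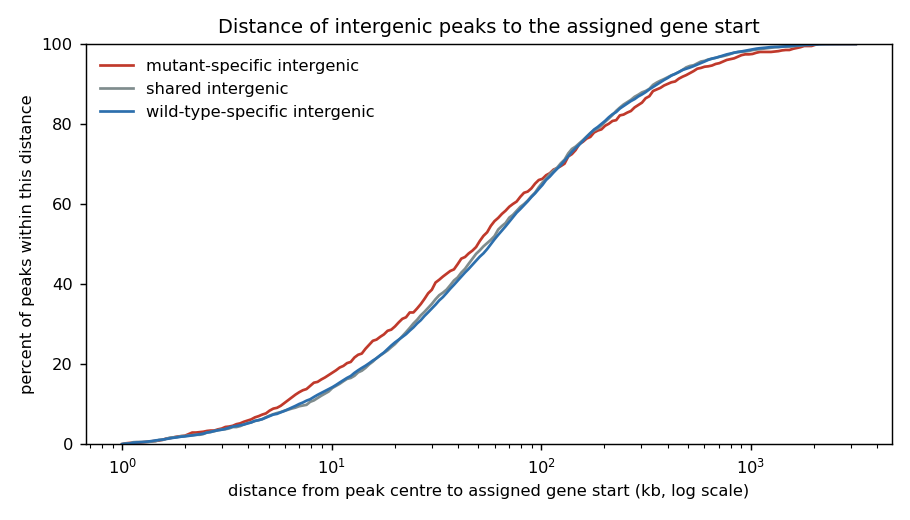
Percent of peaks (vertical axis) whose centre lies within a given distance in kb (horizontal axis, log scale) of the start of the assigned gene, 1 line per intergenic class. The mutant-specific line runs above the others between 5 and 100 kb (29.4% against 24.9% and 25.4% at 20 kb) and the medians are 50.2, 54.3 and 57.5 kb.

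Members were unevenly spread over chromosomes. Chromosomes 10 to 14 hold 23.5% of the length (taken to the last annotated gene of each) and held 554 members (55.2%, 52.1 to 58.3), that is 0.897 per Mb against 0.223 per Mb on the others, a ratio of 4.02. The ratio was 2.51 for shared and 1.77 for wild-type-specific intergenic peaks. The share on chromosomes 10 to 14 was 43.5% and 35.1% in these classes. These chromosomes were picked after earlier results of these data, so the excess is a description and its tests are given no reading. Chromosome 13 had the highest density (137 members, 1.14 per Mb) and, apart from X, chromosome 18 the lowest (9 members, 0.0993 per Mb).

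For all 3 classes, the median distance to gene starts was larger, and the share past gene ends smaller, on chromosomes 10 to 14 than elsewhere; these differences were not tested. The members' median distance to the gene start was 80.6 kb against 29.6 kb elsewhere, and 45.5% of them lay beyond 100 kb, against 19.4% elsewhere. Of the 76 members beyond 500 kb, 68 were on these chromosomes. Within 5 kb past a gene end lay 12.1% of members on chromosomes 10 to 14, against 32.1% of members elsewhere. For shared intergenic peaks the median distance was 89.2 against 40.6 kb, and 4.97% against 13.7% lay past gene ends. For wild-type-specific ones it was 78.9 against 49.4 kb, and 5.63% against 8.73%. Among mutant-specific peaks inside genes 27.4% were on chromosomes 10 to 14, and among those at gene starts 16.7%. The lists carry no library, depth or input value per peak, so the part of any library or chromosome copy number in this excess was not tested.

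**Figure D5:**
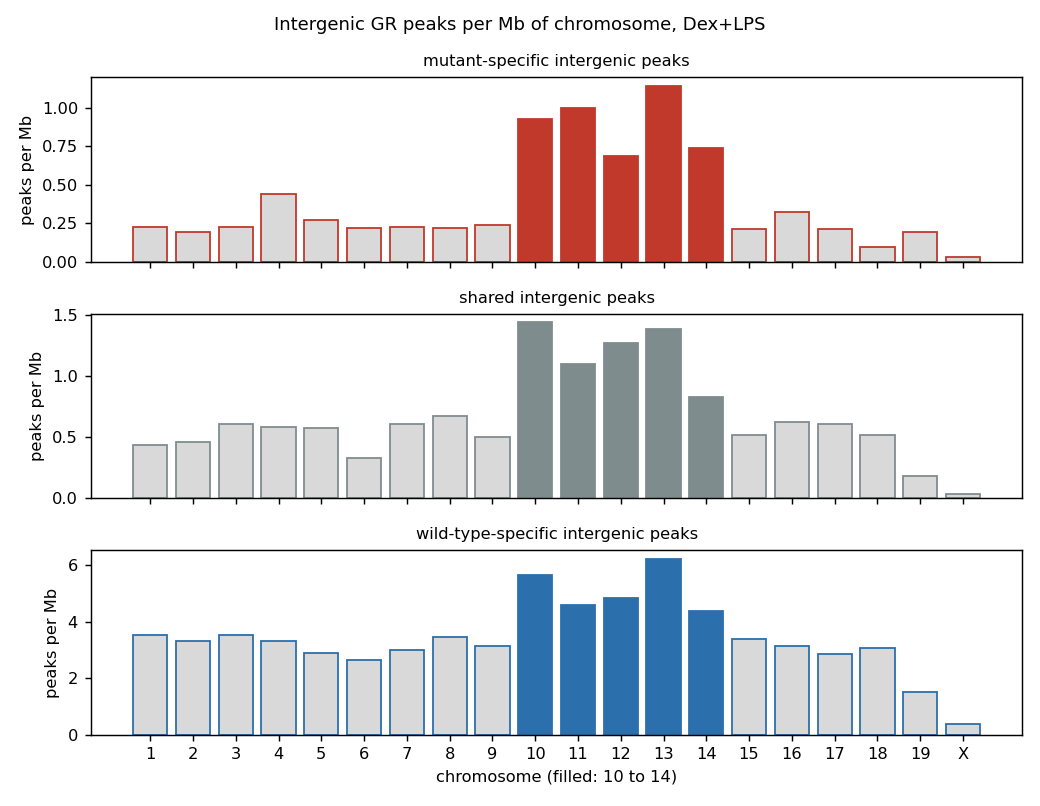
Intergenic peaks per Mb (vertical axis) on each chromosome (horizontal axis) for the mutant-specific, shared and wild-type-specific classes, 1 panel each with its own scale; filled bars are chromosomes 10 to 14. The mutant-specific density is 0.897 per Mb on the filled and 0.223 per Mb on the other chromosomes.

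The members were not in the wild-type lists under Dex+LPS, and their distance to the wild-type peaks was measured next. The median distance to the nearest shared or wild-type-specific peak was 8.57 kb and the smallest 158 bp. A wild-type peak lay within 1 kb of 16.7% of members. Another such peak lay that near to 12.8% of shared and 9.18% of wild-type-specific intergenic peaks. On chromosomes 10 to 14 alone, these shares were 19.0%, 19.5% and 13.8%, and the differences were not tested. Within 10 kb the members' share was 52.4%, between the 45.1% of wild-type-specific and the 58.6% of shared intergenic peaks. Of the members, 113 (11.3%) had no wild-type peak within 100 kb. A shared peak lay within 10 kb of 21.7% of members, against 12.7% of wild-type-specific intergenic peaks (adjusted p = 4.40e-13, Fisher's exact test across peaks). Among shared intergenic peaks themselves the share with another shared peak that near was 22.8%. Another mutant-specific peak lay within 10 kb of 36.6% of members, against 48.4% of the 1021 mutant-specific peaks inside genes (Fisher's exact test, adjusted p = 1.71e-07). On chromosomes 10 to 14 alone this last difference was -3.20 percentage points, with adjusted p = 0.600 by the same exact test.

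The Dex libraries, the only ones with a list each, showed whether members were also found without LPS. In the wild-type cells, Dex library 1 (412 peaks) overlapped 12 members and library 2 (854 peaks) overlapped 28. In the mutant cells, library 1 (53 peaks) and library 2 (60 peaks) overlapped 0 members each. Both wild-type libraries thus stood above both mutant ones, with means of 20 ± 11.3 (SD, n = 2) and 0. An exact permutation test (two-sided) gave p = 0.333, the smallest that 2 against 2 libraries allow. The share of all Dex+LPS peaks overlapped by these libraries was 0.426%, 0.843%, 0 and 0.00811% in the same order. The members met under Dex alone were thus met by wild-type and not by mutant peaks, although the Dex+LPS lists hold them as mutant-specific. The short mutant lists limit what can be said, since 0 of 53 and 0 of 60 peaks allow a share of up to 5.66% and 5.00%, above the 2.91% and 3.28% of the wild-type libraries' peaks.

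Either wild-type Dex library overlapped 37 members (3.69%, 2.61 to 5.05), against 1.16% of all Dex+LPS peaks. This was 4.38% of shared intergenic peaks (adjusted p = 0.424, Fisher's exact test across peaks, chosen after seeing the data) and 0.885% of wild-type-specific ones (adjusted p = 1.53e-10). Of the 37 members, 31 were on chromosomes 10 to 14 and 17 lay beyond 100 kb. On chromosomes 10 to 14, 5.60% of members and 9.66% of shared intergenic peaks were overlapped, and on the other chromosomes 1.34% and 0.310%. Both wild-type libraries met only 3 of the members, those at Hs3st5 (490 kb upstream), 1700046C09Rik (205 kb downstream) and Frmd8 (chr19:5850065-5850264, in the run beside Neat1). The member past the end of Pdk4 was met by wild-type library 2.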

How the data were processed

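The authors deposited peak lists of GR ChIP-seq in MEFs, 3 merged lists under Dex+LPS and 1 list for each of 4 Dex libraries. BWA 0.7.13, Picard 1.119, MACS2 2.1.0 and build mm10 appear in the submitters' processing notes, with no role for each. The deposited values used here were positions and, per the file headers, the distance in bp to an assigned gene, with no score of any peak. The sources used here do not give how peaks were merged, called against a control and annotated. A merged list can grow with the number or depth of its libraries, and 4 mutant libraries stood against 3 wild-type ones.

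Members were read by the 2 annotation columns. Gene spans, tRNA genes and promoter windows came from RefSeq tables of GRCm38.p6, and all 684 assigned genes matched. Overlap meant at least 1 bp. Shares carry exact (Clopper-Pearson) 95% intervals, which cover counting error only. Classes were compared across peaks by Fisher's exact test (two-sided, Benjamini-Hochberg over 8 positional tests, and over 8 more added after seeing the data), and Dex libraries by an exact permutation test. The scripts were tested on simulated data. Computation used Python 3.11.15, numpy 2.4.6, pandas 2.3.3, scipy 1.17.1, matplotlib 3.10.9 and bedtools 2.31.1. Genes were named by 2 rules, members of the lists and the 15 genes with the most members (ties by symbol); any others are marked. The members, lists and tests were chosen with earlier results of these data known. Results for a few genes these rules name are not reported here.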

Additional observations from a re-analysis of the deposited data

How the results depend on the processing

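Values here are differences between members and another class in percentage points, with Fisher's exact test across peaks adjusted as in the main comparison. The share inside another gene against shared intergenic peaks turned to -0.131 for distances above 5000 bp, -0.813 without chromosomes 10 to 14 and -1.22 with 1 peak per run, and against wild-type-specific peaks to -0.357 with 1 peak per run, none past the threshold in either direction. With protein-coding bodies only, the latter was 2.45 (adjusted p = 4.67e-05, Fisher's exact test). Of the 49 members there, 22 lay in the single gene Rnf213. They are not independent, so this test is given no reading. The shares within 20 kb, upstream and past gene ends, whose measures the choice of members also used in whole or in part, are descriptions. Their tests are given no reading. The share within 20 kb against shared peaks was 2.30 with 1 peak per run, 3.44 without peaks inside another gene, 3.68 on chromosomes 10 to 14 only and 1.73 without list genes, and 1.88 when 50 kb was used. Against wild-type-specific peaks it was 2.04 with 1 peak per run, 0.553 on chromosomes 10 to 14 only, 1.5 without list genes and 3.47 at 50 kb. On chromosomes 10 to 14 only, the share with another mutant-specific peak within 10 kb (-3.20) lost its call, and the share upstream against shared peaks was -3.76. The share met by wild-type Dex peaks against shared peaks became -4.07 there and passed the exact test (adjusted p = 0.00931), and was 1.03 without these chromosomes, in the opposite direction (adjusted p = 0.0328). The cause of these changes was not tested. The shares past gene ends and on tRNA genes kept their direction under each alternative run. The tests on tRNA genes also kept their side of the threshold, but were chosen after seeing the data. Past gene ends the differences ranged from 3.69 (within 1 kb) to 18.4 against shared and from 5.10 to 23.3 against wild-type-specific peaks. Over all comparisons and alternatives, 94 values kept direction and side of the threshold, 11 fell below it, 2 rose past it and 5 changed sign. The 4 of the 94 that leave out a Dex library have no test and kept direction only. These counts include the tests given no reading, so they do not measure how firm the results are. The interferon count was 12 without chromosomes 10 to 14 and 7 on them alone.

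With the replicate block, which pairs Dex libraries by number, the wild-type minus mutant difference in members met stayed 20 and the exact permutation p was 0.500, the smallest that 2 pairs allow. Leaving out 1 Dex library at a time gave 12 to 28. Motif searches in the peaks were not run, since no genome was used here, nor was a stricter peak threshold, since no scores were used. The unknown depth limits every statement on absence.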
